A study of Mus musculus with 8 samples.

Results

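The myelin structural genes followed here are Mbp, Cnp, Mag, Mobp, Mal, Cldn11, Mog, Ermn and Opalin, 9 of the 29713 genes in the deposited tables. They were chosen by symbol, with earlier results of these data known. All 9 were found by gene identifier. RNA was sequenced in 8 mouse libraries, 1 per group: cerebellum, cortex and hippocampus of strain C57, glia and neuron preparations from C57 brain, fibroblasts of strains ICR and OG2 (MEF) from embryos of day 13.5, and a library labelled R1 ESCs, of inner cell mass origin and strain 129X1 x 129S1. No treatment or transgene is given in the labels used here, nor the age and sex of the animals, any pooling, or the way neurons and glia were prepared. With 1 library in each group there was no replicate, so no p-value is given, and intervals and bounds cover counting error only.

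Myelin is the stack of membrane that oligodendrocytes wrap around axons in the central nervous system. Its layers are compacted by basic cytoplasmic proteins such as that of Mbp, sealed by tight junctions, and joined to the axon by adhesion proteins. Most of these genes are switched on late, when a precursor cell matures, under the transcription factors Sox10 and Myrf.

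Total expected counts, the read numbers that RSEM assigns to genes, ran from 2147004 in the library labelled R1 ESCs to 5864673 in glia. Levels are in TPM, in which counts are divided by transcript length and scaled to a fixed total, so that genes can be set beside each other. Marker lists were summed to check the labels. The 8 neuron genes summed to between 6487 and 7299 TPM in the brain regions, 5321 in neuron and 457 in glia. The 8 astrocyte genes summed to between 2740 and 5961 TPM in the regions, 2977 in glia and 421 in neuron. Aldoc alone came to 359 TPM of the neuron sum and to 325 of the glia sum. Glia also held 628 TPM of the 8 microglia genes and 4957 TPM of the 8 fibroblast genes, against 410 to 954 TPM of the latter in the regions and 12510 to 14550 in the MEF libraries. Of the fibroblast sum in glia, Sparc and Fn1 made up 4724 TPM, and the other 6 genes, 3 of them collagens, came to 233 TPM, against 44.2 to 73.9 in the regions and 7643 to 8801 in the MEF libraries. In the library labelled R1 ESCs, 5 of 9 stem cell genes had 0 counts and Pou5f1 stood at 20.2 TPM, so its markers go against its label in part.

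In the 3 brain regions most of the myelin genes were abundant, and in the other libraries most were close to 0. Mbp, the major basic protein of compact myelin (ENSMUSG00000041607, chromosome 18, 82475146 to 82585637, mm10), came to 3545 TPM for cerebellum, 2543 for cortex and 3391 for hippocampus. It ranked number 3, 13 and 9 among all genes of those libraries. In the other libraries Mbp stood at 16.8 TPM in neuron, 4.02 in glia, 3.43 in the library labelled R1 ESCs, 2.68 in OG2 MEF and 2.41 in ICR MEF. The lowest region was therefore 151-fold (exact, Clopper-Pearson, 95% interval 128 to 180) above the highest of these libraries, neuron. This interval takes as exact the transcript lengths of Mbp, 1880.4 bases in cortex and 2859 in neuron. By counts alone, Mbp held 9970 of 5369399 in cortex and 140 of 3983575 in neuron. That is a fold below this interval, so the size of the fold depends on the lengths and the scaling.

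**Figure D1:**
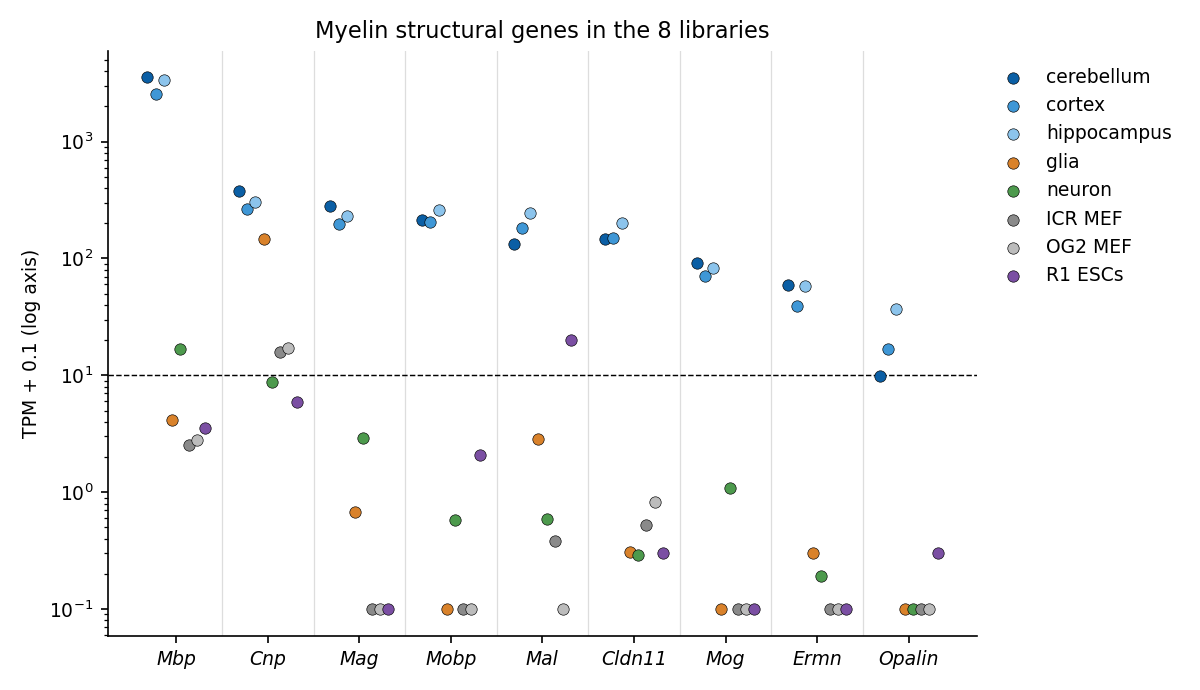
TPM of each of the 9 genes (0.1 added, log axis) in each of the 8 libraries, 1 point per library, genes ordered by their mean in the brain regions; the dashed line marks 10 TPM. The brain regions lie above all other libraries for every gene, glia comes near them for Cnp at 147 TPM, and Opalin in cerebellum lies at 9.74 TPM.

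The genes of the other compact myelin and junction proteins were lower than Mbp in each region and also higher there than elsewhere. Mobp, a small basic protein on the cytoplasmic face of compact myelin (ENSMUSG00000032517, chromosome 9, 120149707 to 120181484), came to 215 TPM for cerebellum, 206 for cortex and 259.5 for hippocampus. It was at 1.99 TPM on 9 counts in the library labelled R1 ESCs, at 0.48 on 2 counts in neuron, and at 0 counts in glia and both MEF libraries, which allows up to 0.428, 0.434 and 0.371 TPM in glia, ICR MEF and OG2 MEF at 3 counts. Mal, a proteolipid of membrane rafts that epithelial cells use as well (ENSMUSG00000027375, chromosome 2, 127633226 to 127656695), came to 134 TPM for cerebellum, 182 for cortex and 245 for hippocampus. Cldn11, the claudin of the tight junctions between myelin layers (ENSMUSG00000037625, chromosome 3, 31149920 to 31164324), stood at 146, 150.1 and 201 TPM in the same order and at no more than 0.73 TPM, 4 counts, in any other library. Its lowest region was 200-fold (77.9 to 738) above its highest non-neural library, OG2 MEF.

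Genes of the myelin surface, the axonal side and the cytoskeleton were likewise at a few counts or none in the other libraries. Mag, a sialic acid-binding adhesion protein of the innermost membrane (ENSMUSG00000036634, chromosome 7, 30899176 to 30914873), came to 281 TPM for cerebellum, 199 for cortex and 232 for hippocampus. It had 7 counts in neuron (2.83 TPM), 3 in glia (0.58 TPM) and 0 in the 3 non-neural libraries. Mog, the immunoglobulin-like protein of the outermost layer (ENSMUSG00000076439, chromosome 17, 37010743 to 37023398), came to 91.5, 70.4 and 82.7 TPM for these regions in turn. Outside the regions it had 3 counts in neuron, 0.99 TPM, and 0 counts in each of the remaining 4 libraries. Ermn, a cytoskeletal protein of mature oligodendrocytes (ENSMUSG00000026830, chromosome 2, 58045113 to 58052864), stood at 58.7, 39.0 and 58.1 TPM, and elsewhere at no more than 0.20 TPM on 2 counts, in glia. Opalin, a glycoprotein of the paranodal loops (ENSMUSG00000050121, chromosome 19, 41061710 to 41077113), was the least abundant at 9.74, 16.7 and 36.9 TPM, and had 1 count in the library labelled R1 ESCs as its only count outside the regions.

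Cnp was the exception, through its level in glia. It codes for a phosphodiesterase of non-compact myelin that keeps cytoplasmic channels open (ENSMUSG00000006782, chromosome 11, 100574904 to 100591729). It stood at 379 TPM in cerebellum, 266 in cortex, 303 in hippocampus and 147 in glia, the last on 875 counts. The MEF libraries had 15.7 TPM (ICR) and 16.9 (OG2), neuron 8.65 and the library labelled R1 ESCs 5.79. No library was thus at 0, which also held for Mbp. Dnajc7, a gene on the opposite strand that overlaps Cnp, stood at 293 TPM in neuron, where Cnp was at 8.65, and at 191 in glia. As strandedness is not given in the sources used here, reads of the overlap cannot be assigned to a strand. Galnt5, which overlaps Ermn on the opposite strand, had no more than 0.53 TPM in any library.

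The stretches before the start sites are shown for the 4 genes in which the letter run ACAAAG, explained below, was found. Mog, Mal, Cldn11 and Ermn, without it, are not shown. Any link between these letters and the levels of the genes was not tested. Promoters were taken from RefSeq (GRCm38.p6), which holds an entry for 8 of the 9 genes and 3 for Mag. Capitals mark ACAAAG, a core letter run of SOX factor sites, and CTGGCAC, that of Myrf, each on either strand (CTTTGT and GTGCCAG on the other). ACAATG, a second SOX run, was searched on both strands and TATAAA on the coding strand alone. The 4 stretches run 5′ to 3′ toward the start site, and bases inside the annotated gene are left out.
Mag, minus strand, chr7:30914923-30915172: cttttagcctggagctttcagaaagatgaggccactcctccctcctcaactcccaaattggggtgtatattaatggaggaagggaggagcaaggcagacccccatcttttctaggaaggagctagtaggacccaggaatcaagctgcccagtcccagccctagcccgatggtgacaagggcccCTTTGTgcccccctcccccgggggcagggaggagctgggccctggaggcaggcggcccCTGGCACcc
Mobp, plus strand, chr9:120149492-120149706: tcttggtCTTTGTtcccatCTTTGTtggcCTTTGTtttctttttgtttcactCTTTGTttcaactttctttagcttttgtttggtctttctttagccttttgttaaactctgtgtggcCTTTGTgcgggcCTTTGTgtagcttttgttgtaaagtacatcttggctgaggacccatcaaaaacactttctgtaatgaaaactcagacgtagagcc
Cnp, plus strand, chr11:100574689-100574903: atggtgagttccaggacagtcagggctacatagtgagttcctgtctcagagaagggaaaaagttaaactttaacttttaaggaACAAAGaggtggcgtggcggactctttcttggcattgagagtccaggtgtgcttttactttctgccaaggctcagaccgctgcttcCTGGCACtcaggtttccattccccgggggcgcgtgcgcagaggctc
Opalin, minus strand, chr19:41077114-41077363: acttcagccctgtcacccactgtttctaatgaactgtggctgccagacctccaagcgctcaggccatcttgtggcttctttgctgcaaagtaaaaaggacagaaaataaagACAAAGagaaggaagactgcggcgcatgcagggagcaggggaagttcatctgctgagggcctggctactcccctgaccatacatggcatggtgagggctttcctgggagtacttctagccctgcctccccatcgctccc

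In the 250 bases before the start, ACAAAG was found in 4 of the 8 genes, those shown, against 16.5% of 32851 promoters of all genes. Counts for the 8 genes are per gene, with a match in any entry, whereas the shares are per promoter entry, so the units differ. Mobp held 6 copies, all as CTTTGT, and was the only promoter of the 32851 with 6 or more. Of the 3 starts of Mag, the stretches before 2, which overlap, held both runs and that before the third held neither. CTGGCAC was found in Mag and Cnp, against 4.19% of all promoters, ACAATG in Ermn (10.7%), and TATAAA in none (7.59%). The motifs searched did not overlap each other. Cnp held 13 CpG dinucleotides in this window and Cldn11 19, which 31.5% and 19.7% of promoters matched or passed, while Mag held 3, Mobp 4, Opalin 4, Ermn 3, Mog 2 and Mal 7, against a median of 6. These are letter matches and say nothing about binding.

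A gene was called higher on one side when all its libraries there held 10 TPM or more and the smallest of these values, with 1 TPM added, was 4 or more times the largest on the opposite side. Against the 3 non-neural libraries, 8 of the 9 genes were higher in the brain regions, where 13.5% of the 12831 genes that reach 10 TPM in a compared library were, and none was lower (1.33% of genes). The ninth, Opalin, missed the level of 10 TPM in cerebellum. The median of the 9 log2 differences of the group means was 6.36, beside 1.35 over all genes tested, and 5.69 with libraries at 0 set to 3 counts. TPM-based TMM factors moved the median of all genes by -1.10 to 0.25 and that of the 9 genes to 5.76. Mag was at least 255-fold above the floor of 3 counts set for each library at 0, Ermn at least 125-fold and Mog at least 65.0-fold (cortex, the lowest region, against ICR MEF). Mbp was 742-fold (502 to 1150.0) and Mobp 104-fold (54.4 to 227) above the library labelled R1 ESCs, the highest of the 3, while Cnp was 15.7-fold (13.0 to 19.1) above OG2 MEF. Mal had the smallest fold, 6.65 (5.59 to 7.95), which rested on the library labelled R1 ESCs. With TMM factors of the counts, TMM factors of the TPM or CPM, 7 genes were higher, without Mal.

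Mal was the one myelin gene above 10 TPM in the library labelled R1 ESCs. It stood there at 20.1 TPM on 153 counts, against 0.28 TPM on 2 counts in ICR MEF and 0 counts in OG2 MEF. That was 72.7-fold (19.8 to 606) above ICR MEF, 40.7-fold (15.6 to 151) above neuron and 7.38-fold (4.61 to 12.4) above glia. In the same library Mag, Mog and Ermn had 0 counts, and Sox10 was at 0.27 TPM and Myrf at 0 while Mbp and Cnp stood at 3.43 and 5.79 TPM. Of the list of transcription factors Zfp488 stood at 145 TPM there, against 47.4 to 57.2 in the regions. Mal accounted for 63.4% of the summed TPM of the 9 genes in this library, which was 31.7 TPM in all.

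**Figure D2:**
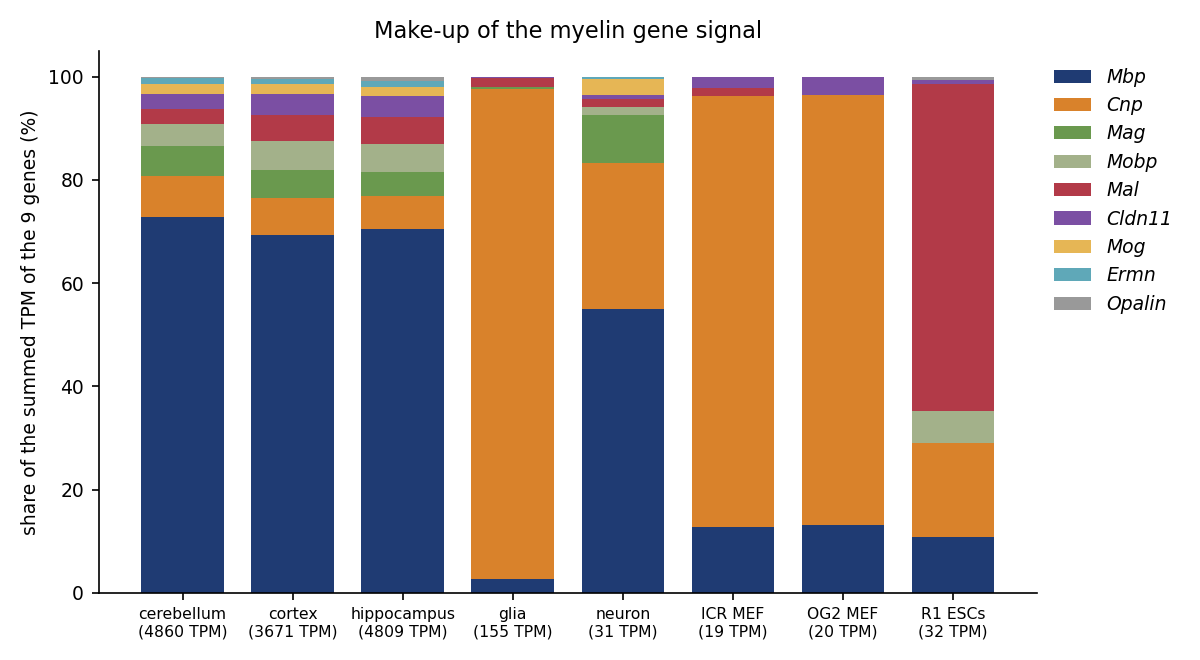
Share of each gene (percent) in the summed TPM of the 9 genes, 1 stacked bar per library with the summed TPM under its name. Mbp makes up 69.3% to 72.9% in the brain regions, Cnp 95% in glia and above 83% in both MEF libraries, and Mal 63.4% in the library labelled R1 ESCs.

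The libraries differed in which genes made up the myelin signal as well as in its size. The 9 genes summed to 4860 TPM for cerebellum, 3671 for cortex and 4809 for hippocampus, which was 0.486%, 0.367% and 0.481% of all TPM. Of this Mbp took 72.9%, 69.3% and 70.5%, Cnp 7.80%, 7.24% and 6.31%, and Mag 5.79%, 5.41% and 4.81% in the same order. Glia held 155 TPM, of which Cnp took 95%, leaving 7.74 TPM for the other 8 genes. Neuron held 30.5 TPM, with Mbp at 55.0% and Cnp at 28.3%. In ICR MEF and OG2 MEF Cnp took 83.5% and 83.2% of 18.8 and 20.3 TPM.

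The glia preparation lacked nearly all structural myelin transcripts apart from Cnp. Compared with it, 7 of the 9 genes were higher in the brain regions, against 8.10% of 12664 genes tested, and none was lower (6.19%), with a median log2 difference of 6.36 beside 0.15 over all genes (5.61 with libraries at 0 set to 3 counts). These comparisons with the regions share the 3 region libraries, so their agreement is not independent. Mbp was 633-fold (443 to 939) lower in glia than in cortex, Mag 340-fold (116 to 1660), Ermn 190-fold (52.2 to 1580) and Mal, against cerebellum, 49.1-fold (31.6 to 80.7). Mobp and Mog had 0 counts in glia and were at least 481-fold and at least 64.6-fold lower. Opalin, also at 0, was at least 15.1-fold lower, and Cldn11 on 1 count 692-fold (124 to 27400.0). Cnp was 1.81-fold (1.66 to 1.97) lower than in cortex, and so under the 4-fold required. In tissue and in a preparation alike, fewer cells of a type and less RNA per cell cannot be told apart.

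The transcription factors of the lineage differed among themselves in glia. Of the list of 8, Sox10 and Myrf were higher in the regions (8.10% of all genes were) and Olig1 was lower (6.19%), and the list's median log2 difference was 1.14, beside 0.15 over all genes. Sox10 came to 27.5, 33.7 and 35.1 TPM for cerebellum, cortex and hippocampus and to 0 for glia, and Myrf to 22.6, 19.8 and 32.9 against 1.09. Olig1, which acts in precursors and mature cells alike, stood at 82.6, 123 and 137 TPM in the regions and at 631 in glia. Its partner Olig2 stood at 15.1, 26.2 and 25.7 TPM against 102, and Nkx6-2 at 18.1, 15.1 and 16.4 against 33.85, both short of 4-fold. St18 stood at 87.0, 8.44 and 44.9 TPM in the regions against 0.57, and Zfp488 at 57.2, 47.4 and 52.6 against 17.9, also not called. Nkx2-2 stood at 13.1, 7.23 and 4.87 TPM against 4.08. Glia thus held Olig1, Olig2, Nkx6-2 and Cnp transcripts with few of Sox10, Myrf and the late myelin genes.

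**Figure D3:**
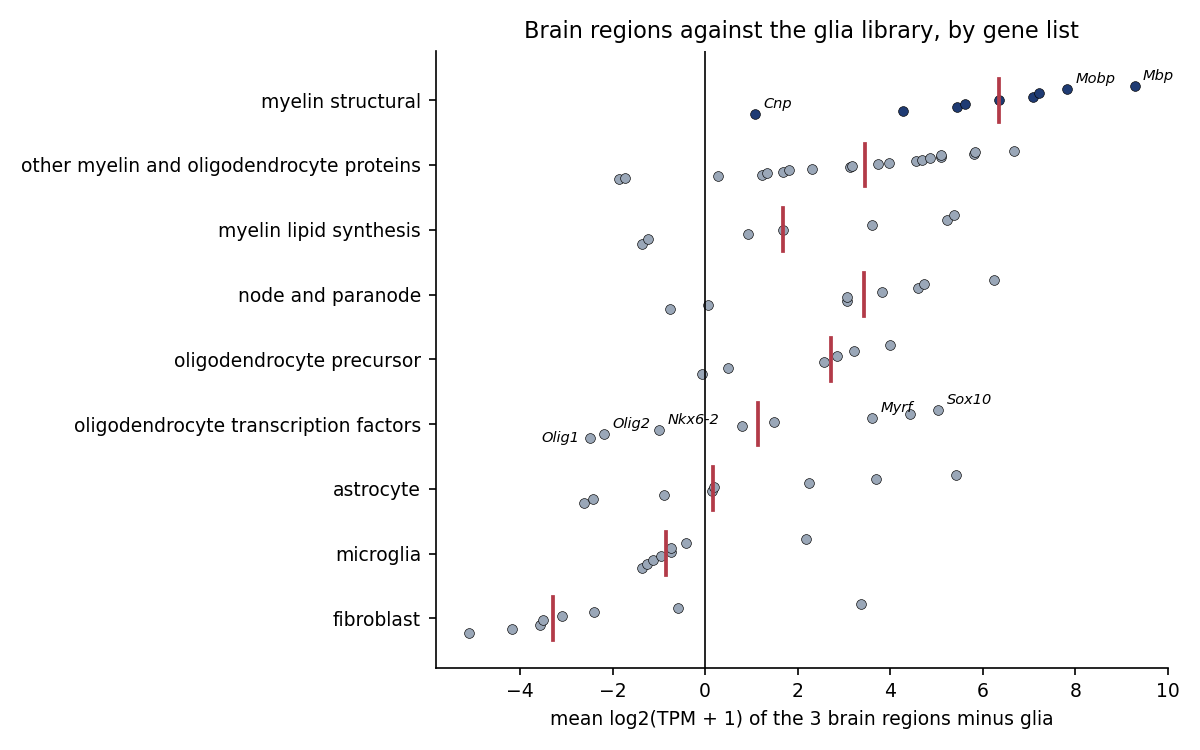
Difference between the mean log2(TPM + 1) of the 3 brain regions and that of glia, 1 point per gene, grouped by gene list; red lines are list medians, and points right of 0 are lower in glia. The myelin structural genes have a median of 6.36 with Cnp nearest to 0 at 1.08, while Olig1, Olig2 and Nkx6-2 lie left of 0.

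Other genes of myelin membrane followed in part. Over all genes tested, 8.10% were higher in the regions than in glia and 6.19% lower, with a median log2 difference of 0.15. Of 7 genes of myelin lipid synthesis, 3 were higher in the regions than in glia and none lower: Ugt8a, which makes galactosylceramide, at 60.5, 38.1 and 48.8 TPM in the regions in the same order against 0.31 in glia, Fa2h at 51.9, 29.5 and 43.6 against 0, and Aspa at 34.9, 32.8 and 35.6 against 1.89. Cers2 and Elovl1, which serve long-chain lipids in many cells, stood at 211 and 74.1 TPM in glia. The list's median log2 difference was 1.69. Of 20 other myelin and oligodendrocyte proteins 13 were higher in the regions and none lower, with a median of 3.46. Among them Bcas1 stood at 144, 121 and 150.1 TPM against 1.42, Trf at 795, 326 and 402 against 28.8, and the gap junction gene Gjb1 at 32.4, 18.8 and 18.4 against 0. Not all of this list ran that way. Ndrg1 stood at 115.6, 108.5 and 175.1 TPM against 473 in glia, and Anln at 33.7, 17.6 and 24.4 against 83.2, both uncalled. Sirt2, at 166, 173 and 176 TPM, was little lower in glia at 141. Of 8 node and paranode genes, most of which neurons express, 6 were higher in the regions, with a median of 3.44. Of 6 measured precursor genes none was called in either direction. In glia Pdgfra stood at 1.27 TPM, Cspg4 at 5.92 and Gpr17 at 0.21. With a required level of 1 TPM 4 of the 6 were higher in the regions, but the share over all genes at that level was not computed. Pmp22, which many cells express, reached 275 TPM in glia. Of the 8 fibroblast genes, 5 were higher in glia than in the regions (Sparc, Fn1, Col1a1, Col1a2 and Lox) and Dcn was lower, at 2.92 TPM against 22.2 to 61.4, a call lost with 5 TPM added. Sparc stood at 3706 TPM and Fn1 at 1018 in glia, Col1a1 at 59.2 and Postn at 2.97. The part of such cells in these differences was not tested.

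The neuron preparation held few myelin transcripts, and those it held were led by Mbp. In all, 8 of the 9 genes were higher in the regions than in neuron, against 16.4% of 11960 genes tested, none was lower (1.68%), and Opalin, at 0 counts in neuron, missed the level in cerebellum. Mobp was 426-fold (117 to 3520.0), Cldn11 768-fold (137 to 30400.0) on 1 count, Mal 271-fold (105 to 995), Mag 70.2-fold (33.9 to 175) and Cnp 30.7-fold (23.6 to 40.7) lower in neuron than in the lowest region. Mog was 71.4-fold (24.2 to 349) lower on 3 counts, Ermn 418-fold (74.5 to 16600.0) on 1 count and Opalin at least 16.8-fold. The median log2 difference of the 9 was 5.94, beside 1.13 over all genes. Of the transcription factor list 5 of 8 were higher in the regions, of the lipid list 4 of 7 and of the list of other proteins 16 of 20. Olig1 stood at 6.80 TPM and Sox10 at 0.13 in neuron. Of astrocyte genes, the neuron library held 421 TPM in sum, of which Aldoc alone came to 359. Gfap stood at 20.2 TPM, Aqp4 at 2.24 and S100b at 0.24 on 1 count, with none of the 8 genes at 0 counts. The 8 microglia genes summed to 61.1 TPM. The part of these cells in its Mbp level was not tested.

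Set against each other, neuron and glia differed in Cnp and Mbp in opposite directions. Cnp was 17.0-fold (13.0 to 22.6) higher in glia, the only 1 of the 9 called. Over all genes tested, 30.5% of 11185 were lower in neuron and 10.4% higher. Only 2 of the 9, Cnp and Mbp, reached 10 TPM in either library, as all genes tested did, and the others could not be called. Mbp was 4.18-fold (2.80 to 6.43) higher in neuron on 140 counts against 30, just short of the rule with 1 TPM added; with 0.1 TPM added, TMM factors of the TPM or CPM it was called. Mag had 7 counts against 3, a ratio of 4.85 (1.11 to 29.1). That interval takes as exact transcript lengths of 963 bases in neuron and 2007 in glia, which rest on these counts. With CPM, which has no length term, the Mag difference was smaller. Mag was therefore not taken as higher in neuron beyond counting error. Mal had 4 counts against 20, a fold of 5.51 (1.85 to 22.2) toward glia. Cldn11, Ermn, Mobp, Mog and Opalin had no more than 3 counts in either library, and no difference was detectable at this depth. Against the 3 non-neural libraries Mbp was the gene called higher in neuron (12.3% of genes higher, 2.67% lower), 4.90-fold (3.19 to 7.83) above the library labelled R1 ESCs. Cnp was the gene called higher in glia (9.27% higher, 0.512% lower), 8.69-fold (7.17 to 10.6) above OG2 MEF. At 10 TPM or more in a compared library were 3 of the 9 genes for neuron and 2 for glia. The call of Mbp was lost with 5 TPM added, with either TMM scaling and with CPM. Between ICR MEF and OG2 MEF none of the 9 was called (0.437% of genes higher and 0.149% lower). Cnp, the only 1 of the 9 at 10 TPM there, differed by 1.08-fold (0.816 to 1.42).

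Outside the regions the Mbp counts were assigned to longer transcripts. RSEM reports for each gene a transcript length weighted by the abundance of its transcripts; for Mbp the tables list 15 transcripts, of 354 to 4797 bases in GENCODE M21. The weighted length was 1852 bases in cerebellum, 1880.4 in cortex and 1884 in hippocampus. It was 2827 bases in glia, 2859 in neuron, 2672 in the library labelled R1 ESCs, 4074 in OG2 MEF and 4521 in ICR MEF, so that no library outside the regions overlapped them. These lengths rest on 9170 to 14312 counts in the regions and on 25 to 140 elsewhere, and the counts of single transcripts were not analysed here. The Mbp locus also encodes Golli proteins from an upstream start, which are made outside myelin as well. For Mag, with 8 transcripts, the length was 1645 bases in cerebellum, 1649.6 in cortex and 1843 in hippocampus. It was shorter in neuron, at 963 bases on 7 counts, and longer in glia, at 2007 on 3. Mobp was shorter outside the regions, at 1501 bases in neuron on 2 counts and 1715 in the library labelled R1 ESCs on 9. In the regions its length was 2395 to 2555.5 bases.

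**Figure D4:**
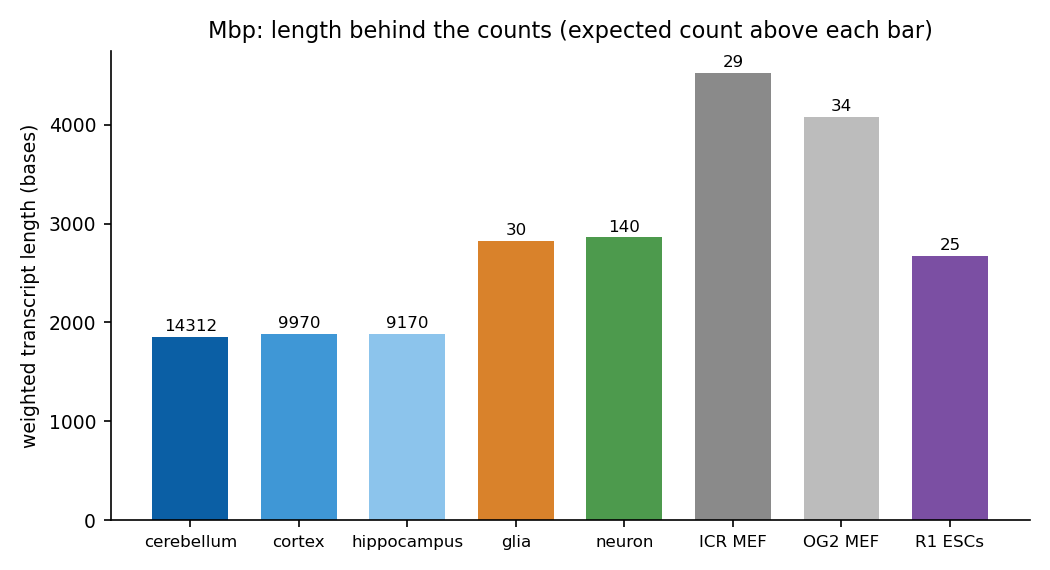
Abundance-weighted transcript length of Mbp (bases, axis from 0) in each of the 8 libraries, with the expected count above each bar. The 3 brain regions lie between 1852 and 1884 bases and the 5 other libraries between 2672 and 4521, on 25 to 140 counts each.

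Between the brain regions no gene of the 9 differed by the 4-fold rule, and the smaller differences ran in both directions. In cerebellum against cortex and hippocampus 2.25% of 11728 genes were higher and 3.01% lower, and between cortex and hippocampus 0.832% of 11059 were higher and 0.452% lower. With 2-fold in place of 4-fold none of the 9 differed in cerebellum (7.09% of genes higher, 7.06% lower). Mbp, Cnp, Mag, Mog and Ermn were highest in cerebellum, 5 of 9 where 49.5% of genes were, and Mobp, Mal, Cldn11 and Opalin in hippocampus, 4 of 9 against 23.5%. None was highest in cortex (27.0% of genes), and 6 of 9 were lowest there (31.5%); Mal, Cldn11 and Opalin were lowest in cerebellum (34.8%) and none in hippocampus (33.7%). With either TMM scaling Mbp and Ermn were highest in hippocampus, and the other 7 had the same highest region; Mobp was then lowest in cerebellum.

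**Figure D5:**
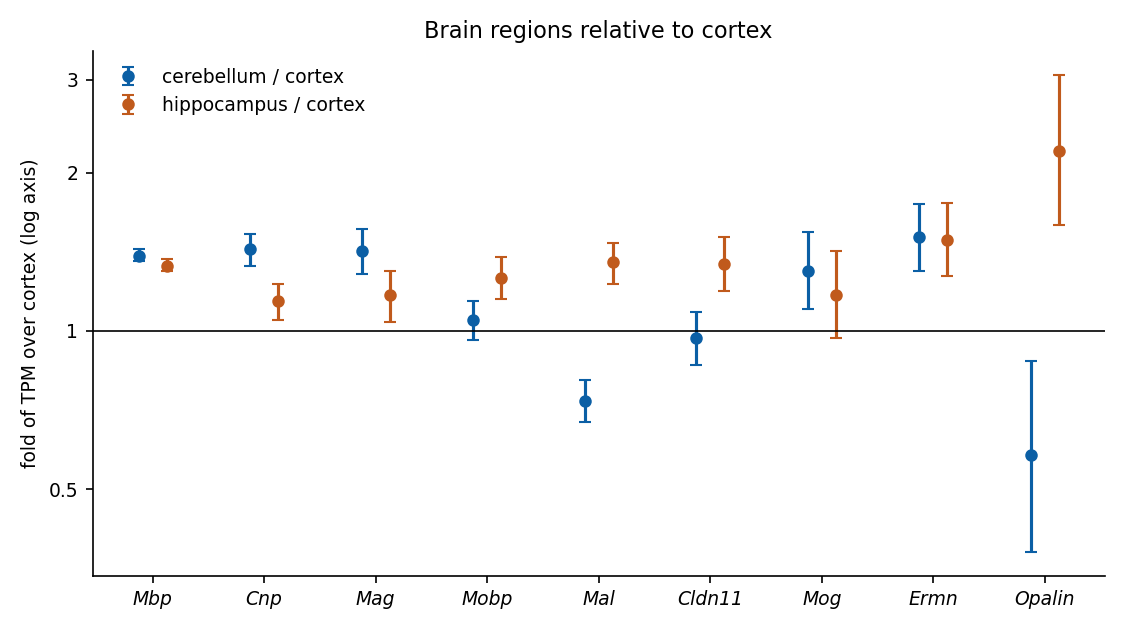
Fold of TPM over cortex (log axis) for cerebellum and hippocampus, 1 point per gene, with exact 95% intervals from the counts of single libraries; the line at 1 marks cortex. Hippocampus lies above cortex for all 9 genes, while cerebellum lies above it for Mbp, Cnp, Mag, Mog and Ermn and below it for Mal and Opalin beyond the interval.

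Hippocampus exceeded cortex in each of the 9 genes, by a factor between 1.14 (1.05 to 1.23) for Cnp and 2.20 (1.59 to 3.07) for Opalin, and for Mog by 1.17 with an interval that included 1 (0.970 to 1.42). The median log2 difference of cortex minus hippocampus was -0.42 over the 9 genes and 0.02 over all genes. Opalin was the one gene past a 2-fold rule, where 2.20% of genes were lower in cortex and 3.45% higher. Cerebellum exceeded cortex 1.51-fold (1.30 to 1.74) in Ermn, 1.43-fold (1.33 to 1.53) in Cnp, 1.42-fold (1.28 to 1.56) in Mag and 1.39-fold (1.36 to 1.43) in Mbp. Between cerebellum and hippocampus Mbp differed by 1.05-fold (1.02 to 1.07), and Ermn (1.01-fold, 0.875 to 1.17) and Mog (1.11-fold, 0.926 to 1.32) did not differ beyond the interval.

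Mal and Opalin ran the other way in cerebellum. Mal was 1.36-fold (1.24 to 1.49) higher in cortex and 1.83-fold (1.67 to 2) higher in hippocampus than in cerebellum. Opalin was 1.72-fold (1.14 to 2.63) and 3.78-fold (2.58 to 5.64) higher, on 39 counts in cerebellum, 64 in cortex and 97 in hippocampus. Cldn11 was 1.38-fold (1.23 to 1.56) higher in hippocampus than in cerebellum, and cortex and cerebellum did not differ beyond the interval (1.03-fold, 0.919 to 1.16). Set against Mbp in the same library, Mal came to 3.78% of its TPM for cerebellum, 7.14% for cortex and 7.21% for hippocampus, and Opalin to 0.275%, 0.658% and 1.09%. Cnp was at 10.7%, 10.5% and 8.94%, Mag at 7.94%, 7.81% and 6.83%. These intervals hold for the libraries and not for the regions, as the spread between animals and dissections was not measured.

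Of the 6 precursor genes, the 8 transcription factors and the 20 other proteins none was called in cerebellum against cortex and hippocampus. Over all genes 2.25% were higher and 3.01% lower, which leaves room for few calls in lists of this size. St18 was lowest in cortex, at 8.44 TPM on 45 counts, against 87.0 in cerebellum and 44.9 in hippocampus. It was called lower in cortex than in hippocampus (0.452% of genes were). Against cortex alone it was also higher in cerebellum, with no share over all genes computed. The 6 precursor genes summed to 51.6, 93.6 and 91.5 TPM in cerebellum, cortex and hippocampus, with a median log2 difference of -0.94 beside 0.11 over all genes. They did not run one way. Gpr17 came to 7.54, 26.7 and 28.9 TPM in this order, and Pdgfra to 8.47, 34.0 and 27.8. Cspg4 stood at 2.91, 8.49 and 6.80 and Neu4 at 4.10, 7.33 and 7.70, while Vcan stood at 20.4, 9.34 and 10.7 and Enpp6 at 8.12, 7.78 and 9.73. The part of these values in the order of Mal and Opalin was not tested.

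Across the 8 libraries the 9 profiles were alike. Pearson's r of log2(TPM + 1) between pairs of genes had a median of 0.970 over 36 pairs and ranged from 0.738, for Cnp with Mal, to 0.999; without Cnp the 28 pairs ranged from 0.886. These values describe the contrast between the regions and all other libraries, which the points share. Among the 6968 other genes that reach 50 TPM, those closest to the median profile of the 9 included Klhl34 (r = 0.999), Vtn (0.996), Ugt8a (0.995), Stxbp5l (0.995), Bcas1 (0.994), Hbb-bs (0.993), Fa2h (0.993), Tmem88b (0.993) and Gjb6 (0.991). Hbb-bs, a haemoglobin gene of red cells, came to 780.1 TPM for cerebellum, 445 for cortex and 374 for hippocampus and to 0 elsewhere. Ugt8a, Fa2h and Bcas1 are also on the lists of myelin genes above. Over the 5 brain libraries alone, 2 of the 10 closest genes were shared.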

How the data were processed

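RNA was measured in 8 libraries, 1 per group, grouped by their titles. Per the labels' protocols, Trizol was used for extraction, and an Illumina TruSeq kit for libraries from 1 ug of total RNA. The submitters' processing notes name Bowtie, RSEM and mm10; the sources used here give no version, annotation or strandedness. Expected counts, TPM and transcript lengths in bases were deposited by the authors, per the file headers. Symbols were matched for 29202 of 29713 genes, and coordinates come from GENCODE M21 (mm10). Of expected counts above 0, 80.3% were whole.

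Calls use TPM with 1 added, a level of 10 TPM and 4-fold; background percentages are over genes that reach 10 TPM in a compared library. Folds carry exact 95% intervals, which take the transcript lengths as exact. Libraries at 0 were set to 3 counts each. The naming rule covers all 9 members, examples from 12 lists and the 10 most similar genes by Pearson's r, of which 9 are named; some genes that met the rule are not reported here. The members and lists were chosen with earlier results of these data known. Alternatives were 0.1 or 5 TPM added, a level of 1 TPM, TMM factors, CPM, and leaving out libraries. The rule was tested on simulated data. Python 3.11.15, numpy 2.4.6, pandas 2.3.3, scipy 1.17.1, matplotlib 3.10.9, R 4.3.3 and edgeR 4.0.16 (TMM factors alone) were used.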

Additional observations from a re-analysis of the deposited data

How the results depend on the processing

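Of 148 recomputed counts of myelin genes called over the 9 comparisons, 141 stayed within 1.5 times. Those that did not concern single genes: for neuron against glia, 1 gene (Mbp) was higher in neuron with 0.1 TPM added, with TPM-based TMM factors and with CPM, against 0; for neuron against the non-neural libraries, 0 were higher with 5 TPM added, with either TMM scaling and with CPM, against 1. No log2 difference of a called gene changed sign, and 75 of 666 differences moved beyond their counting interval. Among these, Mbp differed less with CPM between the regions and the non-neural libraries, neuron or glia. Without cerebellum 9 genes were higher in the regions than in the non-neural libraries and in neuron, and 8 than in glia. Leaving out a library loosens the rule for every gene, and the shares over all genes were not computed under these alternatives. Of 210 list counts 202 stayed within 1.5 times. With CPM 3 transcription factor genes were higher in the regions than in neuron and 2 lower than in glia, and 2 precursor genes were higher in the regions than in glia, as without cerebellum; 4 were with a level of 1 TPM. Without hippocampus 1 gene of the other proteins was lower than in glia, and 1 transcription factor gene, St18, was higher in cerebellum than in cortex. With 5 TPM added 0 fibroblast genes were higher in the regions than in glia, against 1 (Dcn). With CPM, Mbp took 68.3%, 64.7%, 65.3% and 64.8% of the summed level in cerebellum, cortex, hippocampus and neuron, and Cnp 74.4% and 75.8% in ICR MEF and OG2 MEF, as CPM has no length term. At these depths 3 counts are worth 0.461 to 0.943 TPM on 2000 bases, so values below that are within counting error of 0. No paired analysis was possible because each group held 1 library.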
